A study of Mus musculus with 24 samples.

Results

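The mouse genes described here were the Gm-named snoRNA loci, small nucleolar RNA genes that carry a provisional symbol of the form Gm followed by digits. They were taken by one rule, a snoRNA biotype and such a name in all 24 deposited count files. The rule gave 71 lines, which were 59 different loci among 4408 features, since 4 of them (Gm22711, Gm23927, Gm24826 and Gm25203) stood on 4 identical lines each. Another 89 snoRNA features with an established name, such as Snord or Snora, served as the class to which they were compared. The libraries were small RNA libraries of CD4+ T cells from spleen and lymph nodes of wild-type C57BL/6 mice, and of the extracellular vesicles (EVs) of the same kind of culture, with 3 libraries in each of 8 groups. GW4869 cultures had been stimulated for 3 days with GW4869, an inhibitor of neutral sphingomyelinase, an enzyme known for its part in vesicle release. DMSO cultures had been stimulated for 3 days with the vehicle DMSO. Stimulated cultures had 3 days on plates coated with antibodies, 2 µg/ml against CD3 and 5 µg/ml against CD28, and resting cultures had 2 days of stimulation, 1 day of expansion and 2 days of rest in medium with IL2. All cells had therefore been stimulated once, the resting ones included, and each kind of culture was represented by both cell and EV libraries. The labels do not say how EVs were isolated, or whether replicates came from separate mice, so p-values measure the spread between these libraries only.

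snoRNAs are short nucleolar RNAs that base-pair with ribosomal and spliceosomal RNA and guide its chemical modification. Box C/D snoRNAs, with a box C near the 5′ end and a box D near the 3′ end, guide 2′-O-methylation by fibrillarin. H/ACA snoRNAs, which end a few bases after an ACA, guide pseudouridylation by dyskerin. U3 is a box C/D RNA that acts in the cleavage of the ribosomal RNA precursor. In mammals most snoRNAs are cut from introns of host genes, many of which are ribosomal protein or translation factor genes or non-coding hosts such as Gas5, Snhg1 and Zfas1. T cells that are activated grow and build ribosomes, which is the setting in which these RNAs are usually discussed.

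Library totals ran from 1290918 to 3231626 counts, and those of the GW4869 EVs (1290918 to 1663560) were on the low side. The smallest count in any file was 4, so a locus with fewer reads in any library had not been listed, and the loci below are those that were detected everywhere. Their median count was 24 in GW4869 EVs, 50 in DMSO EVs, 35 in stimulated EVs and 17 in resting EVs, against 176, 143, 168 and 48 in the cells of the same 4 cultures. A count under 10 occurred in 18 loci in GW4869 EVs, 3 in DMSO EVs, 3 in stimulated EVs, 20 in resting EVs and 5 in resting cells. Of 6 T cell miRNA markers 5 were listed, with a summed level of 20910 to 270100 CPM (counts per 1e+06 counts of a library, after TMM scaling) per library. In the 16 marker miRNA symbols of other cell types, variant names such as Mir126 and Mir126a were counted separately. Of these symbols 3 were listed (Mir451a, Mir126a and Mir200c), at 9.68 to 163 CPM per library. Their levels or directions are given beside the comparisons in which they moved. The deposited files count the fragments that map inside a locus, and in bulk libraries fewer cells with an RNA and less RNA per cell cannot be told apart.

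By sequence, 31 of the 59 loci held both boxes: TGATGA starting within the first 20 bases and CTGA starting within the last 20 bases of the annotated gene, read on the gene's own strand. Another 9 held box D only, 10 ended with ACA 3 bases from the 3′ end and are called ACA loci here, 4 were U3-like (at least 80% identical to a listed Rnu3 gene) and 5 were none of these (Gm24123 among them held box C only). Of these 5, Gm24616 and Gm26447 held an ACA nearer to the 3′ end than 3 bases, and Gm22519 was 98.9% identical to Snora81. The 5 are thus loci outside these rules, not a class shown to lack the ACA. Likewise the 9 loci with box D only held no exact TGATGA at that place and are not a class shown to lack box C. Gm23969, Gm24134, Gm24494 and Gm25128 among them held TGATGT within the first 20 bases. Both boxes were found in 52.5% of the loci, 47.2% of the 89 named snoRNAs and 20.6% of the 1507 snoRNA genes of GENCODE M21. ACA at that distance was found in 22% of the loci (3 of them with both boxes as well), 19.1% of the named snoRNAs and 18.3% of the annotated genes. TGATGA, with or without CTGA, was found in 54.2%, 48.3% and 21.8% of these sets, and CTGA, with or without TGATGA, in 76.3%, 76.4% and 35.4%. Lengths ran from 60 to 271 bases, with a median of 72 for loci with both boxes, 75 with box D only, 133 for ACA loci and 215 for the U3-like ones. They lay on 18 chromosomes, and 51 lay in an intron of at least 1 transcript of a host gene: 7 in Snhg1, 5 in Gas5, 4 in Taf1d (a subunit of the RNA polymerase I promoter factor), 2 in Zfas1, 15 in ribosomal protein genes including Rack1, 16 in other coding genes and 2 in other non-coding genes. RefSeq (GRCm38.p6) gives another symbol to 2 of them, Snord94 to Gm22486 and Rnu3b-ps1 to Gm23927.

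The sequences below are the 6 loci with the highest mean level over the 8 groups, which lead on CPM and also on CPM per length. Coordinates are GRCm38 with GENCODE M21 genes, counted from 1. Capitals mark TGATGA (box C) and CTGA (box D). Gm24452, Gm25855 and Gm25894 lie in Snhg1, Gm23212 and Gm25789 in Gas5 and Gm23201 in Zfas1. All 6 lie in introns of some, but not all, transcripts of these non-coding hosts that span them.
Gm24452 (chr19:8724531-8724602, plus strand): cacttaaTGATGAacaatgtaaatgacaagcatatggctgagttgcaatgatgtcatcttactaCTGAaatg
Gm25855 (chr19:8723993-8724064, plus strand): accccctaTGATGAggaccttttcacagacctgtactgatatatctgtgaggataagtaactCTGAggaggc
Gm25894 (chr19:8724251-8724325, plus strand): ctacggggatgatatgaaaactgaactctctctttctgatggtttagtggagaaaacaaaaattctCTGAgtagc
Gm23212 (chr1:161036682-161036741, plus strand): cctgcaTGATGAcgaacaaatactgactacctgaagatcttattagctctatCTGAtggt
Gm25789 (chr1:161038308-161038383, plus strand): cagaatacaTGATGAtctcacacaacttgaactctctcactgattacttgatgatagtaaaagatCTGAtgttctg
Gm23201 (chr2:167064998-167065086, plus strand): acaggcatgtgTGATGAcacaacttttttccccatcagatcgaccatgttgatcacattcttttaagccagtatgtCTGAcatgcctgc
The next set departed from the other loci in resting or stimulated cultures, and the results below turn on it. Capitals mark the same boxes or, in Gm24313, Gm26205 and Gm26448, the ACA near the 3′ end. Gm22680 lies in Snhg1, Gm22357 and Gm26224 in Gas5, Gm25835 in Eif4a1 and Gm24616 in Eif4a2 (RNA helicases of translation initiation), Gm26205 in Rpl6 and Gm26448 in Rpsa (ribosomal proteins), and Gm24313 in Tbrg4, a mitochondrial RNA regulator. No box or ACA was found at these places in Gm24616, although it holds an ACA still nearer to its 3′ end.
Gm22680 (chr19:8725341-8725409, plus strand): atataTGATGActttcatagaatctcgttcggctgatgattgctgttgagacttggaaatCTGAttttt
Gm22357 (chr1:161036057-161036139, plus strand): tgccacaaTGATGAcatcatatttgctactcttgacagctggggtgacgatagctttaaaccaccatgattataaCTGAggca
Gm26224 (chr1:161035394-161035473, plus strand): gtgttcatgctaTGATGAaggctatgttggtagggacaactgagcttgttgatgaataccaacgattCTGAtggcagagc
Gm25835 (chr11:69668852-69668995, minus strand): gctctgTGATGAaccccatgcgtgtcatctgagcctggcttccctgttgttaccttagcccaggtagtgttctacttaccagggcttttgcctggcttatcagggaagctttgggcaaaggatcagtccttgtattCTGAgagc
Gm24616 (chr16:23111617-23111755, plus strand): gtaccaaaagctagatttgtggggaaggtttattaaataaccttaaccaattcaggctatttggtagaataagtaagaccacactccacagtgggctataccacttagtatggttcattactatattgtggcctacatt
Gm26205 (chr5:121205010-121205143, plus strand): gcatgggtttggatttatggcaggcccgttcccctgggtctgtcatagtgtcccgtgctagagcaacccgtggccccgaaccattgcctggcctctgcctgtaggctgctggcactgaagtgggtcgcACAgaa
Gm26448 (chr9:120129351-120129553, plus strand): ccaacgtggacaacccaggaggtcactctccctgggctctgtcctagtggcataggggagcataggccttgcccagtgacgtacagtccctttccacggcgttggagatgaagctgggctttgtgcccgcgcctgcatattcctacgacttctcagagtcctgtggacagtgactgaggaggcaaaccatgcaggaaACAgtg
Gm24313 (chr11:6619808-6619940, minus strand): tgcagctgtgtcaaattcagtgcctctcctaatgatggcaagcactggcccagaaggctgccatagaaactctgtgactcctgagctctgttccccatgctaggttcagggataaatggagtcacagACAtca

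Some of these genes are copies of one another, and reads may be shared between copies by the counting. Gm24463 and Gm26135 were identical over their whole length (100%) to Snord50a and Snord50b, and Gm23017 was 98.6% identical to Snord50a. The U3-like loci Gm23927, Gm24826, Gm24949 and Gm25203 were 93.5% to 97.7% identical to each other. Gm22519 was 98.9% identical to Snora81, Gm25296 was 91.2% identical to Snord95, Gm26448 was 88.3% identical to Snora73a, and Gm23201 was 83.1% identical to Gm24123. Values of these loci are uncertain as to which gene the reads came from. Gm25203 lies opposite to Slc24a4, and whether counting used the strand is not stated. In the 29 listed hosts, the counts of the small RNAs listed inside amounted to a median of 42.2% to 100% of the host's count, with 99.6% in Snhg1, 97% in Gas5 and 99.4% in Zfas1. Host counts were therefore not used as a measure of host expression.

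In every culture the Gm-named snoRNAs took a smaller share of EV counts than of cell counts. In GW4869 cultures the share was 0.135, 0.138 and 0.122% in the 3 EV libraries and 0.982, 0.77 and 0.746% in the 3 cell libraries. In DMSO cultures it was 0.172, 0.192 and 0.172% in EVs and 0.858, 0.879 and 0.847% in cells. Stimulated cultures had 0.139, 0.134 and 0.157% in EVs and 0.718, 0.703 and 0.783% in cells. Resting cultures had the lowest shares of both kinds, 0.0916, 0.0782 and 0.0705% in EVs and 0.301, 0.313 and 0.338% in cells. EV and cell libraries did not overlap in any culture. The mean shares were 0.132% ± 0.00858 in GW4869 EVs and 0.832% ± 0.13 in GW4869 cells, 0.178% ± 0.0114 and 0.861% ± 0.0163 in DMSO, 0.143% ± 0.0122 and 0.735% ± 0.0429 in stimulated, and 0.0801% ± 0.0107 and 0.317% ± 0.019 in resting cultures (each EVs and cells, SD, n = 3). Without the 10 most abundant features of each library the shares were 0.201%, 0.298%, 0.256% and 0.194% in EVs and 1.43%, 1.58%, 1.33% and 0.824% in cells, in the same order of cultures, so EVs stayed below cells in each culture. Set against the counts of the named snoRNAs, the loci made 0.461, 0.428, 0.424 and 0.425 of the named counts in GW4869, DMSO, stimulated and resting EVs, and 0.518, 0.561, 0.458 and 0.572 in the cells.

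**Figure D1:**
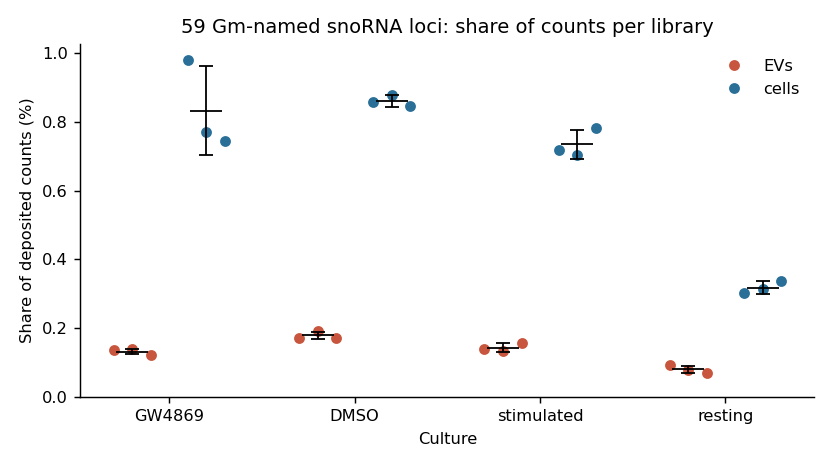
Share of all deposited counts (%, linear axis) that fell in the 59 Gm-named snoRNA loci, for each of the 24 libraries (points), with the group mean (bar) and SD (whiskers), n = 3 per group. EV libraries lie between 0.0705% and 0.192%, all below the cell libraries of their culture, and resting cells (0.301% to 0.338%) lie below the cells of the other 3 cultures.

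Comparing EVs with cells asks which RNAs the vesicles hold in proportion to their cells. All 59 loci were lower in EVs than in cells in GW4869, DMSO and stimulated cultures, and 49 of 59 in resting cultures (edgeR's quasi-likelihood test, 8 groups in 1 model, Benjamini-Hochberg adjusted p under 0.05 over 4408 features, called edgeR adjusted p below). None was higher in any culture. Of all features 32% were lower and 36.2% higher in GW4869, 28.4% and 37% in DMSO, 25.8% and 27.7% in stimulated, and 15.4% and 18.9% in resting cultures. The median log2 fold of the loci was -3.24 in GW4869 (-4.79 to -1.60), -2.67 in DMSO (-4.49 to -1.02), -2.69 in stimulated (-3.98 to -1.04) and -1.77 in resting cultures (-3.54 to -0.021). The medians of all features were 0.18, 0.29, 0.066 and 0.099. The named snoRNAs had medians of -3.24, -2.58, -2.67 and -1.74, with 89, 88, 88 and 80 of 89 lower. The 3 libraries of EVs lay below the 3 of cells for all 59 loci in GW4869, DMSO and stimulated cultures and without overlap for 53 in resting cultures, against 70.9%, 62.8%, 65.5% and 48.2% of all features that did not overlap. Scaled to library totals, the medians of the loci were -2.49, -2.11, -2.24 and -1.62, nearer to 0, while those of all features lay 0.94, 0.88, 0.51 and 0.24 above 0. Mir451a had 13.5 to 27.2 CPM in EVs and 31.3 to 46.2 in cells of GW4869 cultures, and 48.2 to 95.9 in EVs and 9.68 to 31.4 in cells of resting cultures, lower in EVs in GW4869 and higher in resting cultures. Mir126a and Mir200c were also higher in resting EVs than in resting cells, Mir126a was lower in EVs in the other 3 cultures and Mir200c in DMSO cultures, all without overlap. The T cell miRNAs summed to 20910 to 32900 CPM in EVs and 60510 to 107200 in cells of GW4869 cultures. They were also lower in EVs without overlap in DMSO and stimulated cultures, and overlapped in resting cultures. The part of other cells and of these marker differences in the folds was not tested.

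The most abundant loci showed the pattern in each library. Gm24452 in Snhg1 had 21.1, 51.9 and 46.1 CPM in GW4869 EVs and 705, 620.1 and 609 in GW4869 cells. In resting cultures it had 71.1, 75 and 72.2 CPM in EVs and 693, 913 and 946 in cells, a log2 fold of -3.54 (SE 0.30), the lowest of the resting comparison (edgeR adjusted p = 4.80e-10). EV and cell libraries of Gm24452 stood far apart in both cultures. Gm25855, its neighbour in Snhg1, had 60, 58.4 and 62.3 CPM in resting EVs and 569, 642 and 616 in resting cells, with a log2 fold of -3.33 (SE 0.20) and edgeR adjusted p = 8.04e-12. Gm25789 in Gas5 had 44.2, 41.7 and 38.7 CPM in resting EVs and 411, 405 and 395 in resting cells, a log2 fold of -3.28 (SE 0.25, edgeR adjusted p = 1.06e-10). Gm25894 in Snhg1 differed less in resting cultures, with 111, 102 and 109 CPM in EVs and 515, 421 and 398 in cells and a log2 fold of -2.05. In the other cultures Gm23201 or Gm23212 had the lowest fold. Gm23201 in Zfas1 had 15.4, 25.2 and 18.8 CPM in GW4869 EVs and 764, 355 and 527 in GW4869 cells, a log2 fold of -4.79 (SE 0.29, edgeR adjusted p = 5.32e-13). Gm23212 in Gas5 had 22.5, 30.4 and 34.5 CPM in stimulated EVs and 432, 496 and 445 in stimulated cells, a log2 fold of -3.98 (SE 0.22, edgeR adjusted p = 2.59e-13). In DMSO cultures the 3 lowest were Gm23201 (-4.49), Gm22357 (-4.18) and Gm23212 (-4.07), and Gm24134 in Rpl7a (-4.39) was the third lowest of GW4869 cultures. Gm22744 in Snhg1 (-3.90) stood beside Gm23212 and Gm23201 (-3.79) in stimulated cultures.

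The sequence classes differed in how far the EVs lay below the cells, most in resting cultures. There, 30 of 31 loci with both boxes (median log2 fold -2.16) and 9 of 9 with box D only (-1.99) were lower in EVs. Of the ACA loci 4 of 10 were lower (-0.65), of the U3-like ones 2 of 4 (-0.78), and of the 5 loci of no class 4 of 5 (-1.29). The named snoRNAs gave 58 of 58 Snord genes, which are box C/D (-2.06), and 10 of 18 Snora genes, which are H/ACA (-1.12). In GW4869 cultures the medians were -3.51 with both boxes, -3.36 with box D only, -2.38 for ACA loci, -2.74 for U3-like loci and -2.63 for the rest. DMSO cultures had -2.83, -2.81, -1.95, -1.48 and -2.43 in that order, and stimulated cultures -2.74, -2.74, -2.31, -2.42 and -2.69. Classes were also classes of length. Across the 59 loci the rank correlation (Spearman's rho) of the log2 fold with length was 0.589 in GW4869, 0.61 in DMSO, 0.281 in stimulated and 0.648 in resting cultures. These points share their libraries. The rank correlation of the log2 fold with the mean CPM in cells, which is part of the fold, was -0.471, -0.501, -0.386 and -0.573. The part of length, level and class in the folds was not tested.

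**Figure D2:**
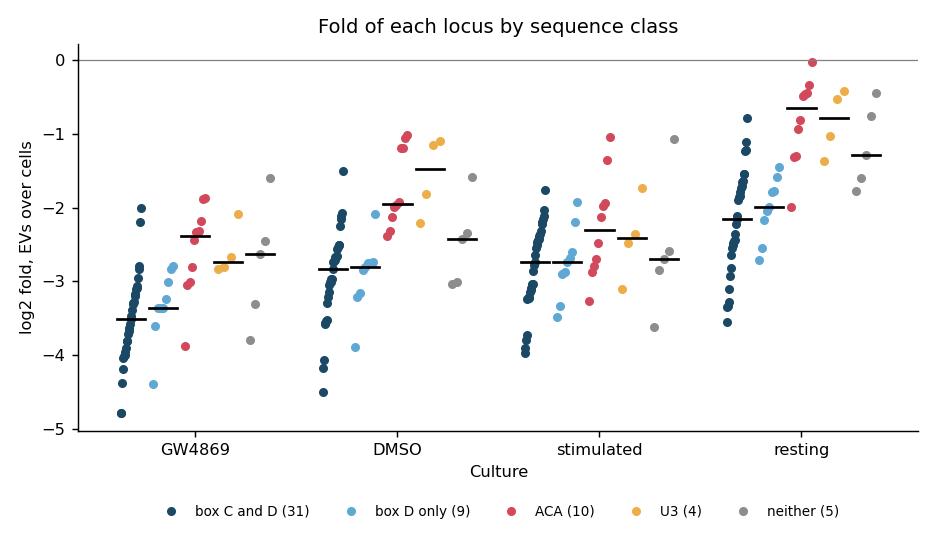
Log2 fold of each of the 59 loci in EVs over cells (linear axis of log2 values) for the 4 cultures, split by sequence class in the order of the legend. Points are loci, horizontal bars are class medians and the grey line marks no difference. All points lie below -1 outside resting cultures, and in resting cultures the ACA and U3-like classes lie nearest to 0.

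A few loci lay over 1.5 log2 units from the median of the 59: 3 in GW4869, 6 in DMSO, 2 in stimulated and 5 in resting cultures, against 36.2%, 28.4%, 22.3% and 17.5% of all features from their own medians. Gm24313 in Tbrg4 had the fold nearest to 0 in resting and stimulated cultures. It had 7.9, 7.64 and 9.42 CPM in resting EVs and 9.09, 11 and 5.28 in resting cells, which overlapped, with a log2 fold of -0.021 (SE 0.38) and edgeR adjusted p = 0.979. Its counts there were small (10, 11 and 18 in EVs, 11, 14 and 6 in cells), and the sign of this fold was the other one with library totals and without either of replicates 1 and 2 of the resting cells or EVs. In stimulated cultures Gm24313 had 5.75, 4.64 and 9.07 CPM in EVs and 17.4, 9.94 and 11.8 in cells, a log2 fold of -1.04 (SE 0.31, edgeR adjusted p = 0.00667), and in DMSO cultures its log2 fold was -1.05 (SE 0.32). The call in stimulated cultures was lost without replicate 1 of the stimulated cells and, like that in DMSO cultures, with library totals. Gm24616 in Eif4a2 had 5.5, 8.99 and 14.2 CPM in stimulated EVs and 22.1, 20.4 and 16.7 in stimulated cells, a log2 fold of -1.07 (SE 0.33, edgeR adjusted p = 0.00807), and -1.60 (SE 0.35) in GW4869 cultures. Without replicate 1 of the stimulated EVs, and with library totals, the call of Gm24616 in stimulated cultures was lost. In DMSO cultures 3 longer loci stood nearest to 0 beside Gm24313: Gm26448 in Rpsa with -1.02 (SE 0.24), and the U3-like Gm23927 with -1.09 (SE 0.26) and Gm24949 with -1.16 (SE 0.26). On the other side were Gm24452, Gm22680, Gm25855 and Gm25789 in resting, Gm22357 and Gm23201 in DMSO, and Gm23201 and Gm23212 in GW4869 cultures, all in non-coding hosts. Gm22680 had 6.32, 18.1 and 8.38 CPM in resting EVs and 126, 94.8 and 115 in resting cells, a log2 fold of -3.35 (SE 0.34, edgeR adjusted p = 7.62e-09).

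To compare single loci with the class, the same model was scaled by the counts of the named snoRNAs alone, so that 0 is the EV to cell difference of those genes. On this scale 14 loci were higher and 12 lower in GW4869, 13 and 13 in DMSO, 15 and 8 in stimulated, and 16 and 16 in resting cultures, with the rest not called. Of all features 95.3%, 94%, 94.8% and 88.5% were called in 1 direction or the other. The median of the loci was 0.027, -0.15, 0.082 and 0.0014. Of the ACA loci 6, 6, 5 and 7 of 10 were higher and 0 lower. Among the loci with both boxes, 4, 3, 6 and 4 of 31 were higher and 11, 12, 6 and 14 lower. The named genes also differed by class. Of 18 Snora genes 7, 7, 4 and 8 were higher and 1, 0, 2 and 1 lower. Of 58 Snord genes 5, 6, 12 and 8 were higher and 15, 17, 9 and 16 lower. A difference by class is thus not particular to the Gm-named loci. In all 4 cultures 4 loci were higher than the named class. These were Gm24313 (1.39 to 1.75 log2), Gm26165 in Snx5 (0.65 to 1.40), the U3-like Gm24826 (0.68 to 1.20) and Gm25835 in Eif4a1 (0.35 to 0.65). Another 3 were lower in all 4, Gm23201 (-1.94 to -1.03), Gm23212 (-1.53 to -0.66) and Gm25855 (-1.56 to -0.45).

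Stimulated cells were compared with resting cells, which had been stimulated earlier and then expanded and rested in medium with IL2. Current stimulation, time in culture and the rest in IL2 cannot be told apart in this comparison. In cells, 32 of the 59 loci were higher in stimulated than in resting cultures and 2 were lower, against 23% and 23.1% of all features. The median log2 fold of the loci was 0.64 (-0.85 to 3.72), that of all features -0.053 and that of the named snoRNAs 0.88, with 55 of 89 higher and 5 lower. ACA loci led: 8 of 10 were higher (median 1.75), and so were 16 of 18 named Snora genes (1.80). All 5 loci of no class were higher (0.98), as were 13 of 31 with both boxes (0.33), 4 of 9 with box D only and 2 of 4 U3-like ones. The 2 lower loci both held both boxes. All 3 scaRNAs, small RNAs that guide modification in Cajal bodies, were lower (median -1.12), and the 3 listed snoRNP protein genes were higher, although their counts are fragments and not mRNA levels. The 3 stimulated and 3 resting libraries did not overlap for 39 of the 59 loci, against 57.4% of all features. Among markers of other cells, the erythroid Mir451a also stood apart, at 58.4 to 83.5 CPM in stimulated and 9.68 to 31.4 in resting cells, and so did the epithelial Mir200c, at 38.1 to 45.7 and 27.3 to 36.1, while Mir126a of platelets and endothelium overlapped. The T cell miRNAs summed to 79070 to 105600 CPM in stimulated and 240400 to 270100 in resting cells. The part of these differences in the folds was not tested. With library totals, the split was 51 higher and 0 lower, and the median of all features was 0.77. The median of the loci lay 0.69 above that of all features under both scalings. A scaling shifts all folds of a comparison nearly alike, so this distance could hardly differ and is no check of the calls.

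Gm26205, an ACA locus in an intron of some transcripts of Rpl6, had the highest fold of the 59. It had 105, 125 and 90.7 CPM in stimulated cells and 6.61, 5.48 and 12.3 in resting cells, a log2 fold of 3.72 (SE 0.30, edgeR adjusted p = 1.02e-10). Its counts were 296, 251 and 245 in stimulated and 8, 7 and 14 in resting cells, so the fold rests on small resting counts. DMSO cells had 67.8, 65.9 and 76.3 CPM and GW4869 cells 88.6, 79.1 and 80.6, all below the 3 stimulated and above the 3 resting libraries. Gm26165, an ACA locus in Snx5 (a sorting nexin), had 21.7, 33.8 and 23.7 CPM in stimulated cells and 8.27, 3.92 and 5.28 in resting cells, a log2 fold of 2.17 (SE 0.29, edgeR adjusted p = 6.72e-07). The 2 ACA loci were picked among called loci whose stimulated and resting cells did not overlap. The other ACA loci that were higher were Gm22620 in Taf1d (1.08), Gm22711 (2.11), Gm23451 in Top2a, the topoisomerase of dividing cells (1.88), Gm26448 (1.87), Gm24523 in Rpl30 (1.62) and Gm24455 in Taf1d (1.44). Against the median went 2 loci. Gm22357 in Gas5 had 52.7, 51.7 and 54.4 CPM in stimulated cells and 81, 93.2 and 113 in resting cells, a log2 fold of -0.85 (SE 0.27, edgeR adjusted p = 0.0113). Gm25835 in Eif4a1 had 266, 327 and 296 CPM in stimulated cells and 458, 433 and 478 in resting cells, a log2 fold of -0.62 (SE 0.22, edgeR adjusted p = 0.0223). Both calls were lost without replicate 3 of the resting cells (log2 folds -0.72 and -0.59) and that of Gm25835 also without replicate 1 of the stimulated cells (-0.55). With library totals neither was called, at -0.032 for Gm22357 and 0.19 for Gm25835.

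**Figure D3:**
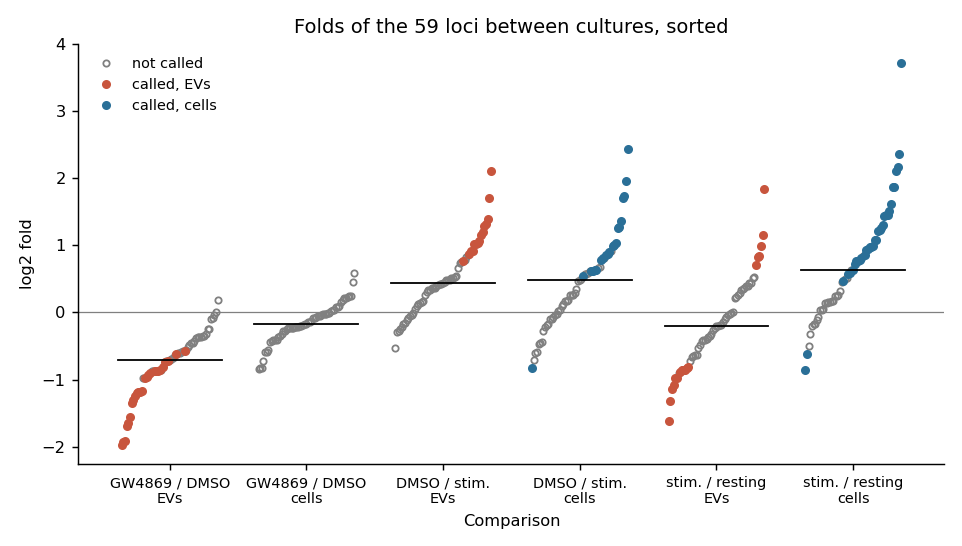
Log2 folds of the 59 loci between cultures, sorted within each comparison, for GW4869 over DMSO, DMSO over stimulated and stimulated over resting libraries, EVs left of cells. Filled points were called (edgeR adjusted p under 0.05), open points were not, and black bars are medians: 32 loci were higher in stimulated than resting cells, and 26 were lower in GW4869 than DMSO EVs.

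The 5 loci inside Gas5, a non-coding gene known for its growth arrest-related expression, lie in introns of some of its transcripts. They had the widest range of folds of the 11 hosts with 2 or more loci in this comparison. Most of these hosts held only 2 loci, over which a range tends to be narrower. Between stimulated and resting cells their log2 folds ran from -0.85 for Gm22357 to 2.36 for Gm23212, with Gm22489 at 0.59, Gm26224 at 0.25 and Gm25789 at 0.17. Gm23212, the shortest locus of the 59, had 432, 496 and 445 CPM in stimulated cells and 76.9, 94 and 95.9 in resting cells, a log2 fold of 2.36 (SE 0.21, edgeR adjusted p = 7.38e-10). In the share that each took of the counts of these 5 loci, which library scaling does not change, Gm23212 made 39.8% ± 2.02 in GW4869 cells, 36.6% ± 1.95 in DMSO cells, 35.9% ± 1.05 in stimulated cells and 10.7% ± 1.09 in resting cells (SD, n = 3 each). Gm25789 made 24.3% ± 2.4, 22.5% ± 1.7, 35.6% ± 2.27 and 48.5% ± 2.35, and was thus the largest in resting cells. Gm22357 made 10.5% ± 1.16, 14.7% ± 1.92, 4.16% ± 0.266 and 11.5% ± 1.58, the lowest in stimulated cells. In EVs the share of Gm23212 varied less. It made 18.8% ± 2.05 in GW4869 EVs, 23.7% ± 3.63 in DMSO EVs, 17.9% ± 1.66 in stimulated EVs and 12.8% ± 2 in resting EVs, of 165 to 573 counts per library in the 5 loci. Shares are not per length, and no test was made between loci of 1 host. Of the 7 loci in Snhg1, 2 were higher in stimulated cells, with a range of -0.51 to 1.23. All 4 loci in Taf1d were higher (0.76 to 1.44).

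**Figure D4:**
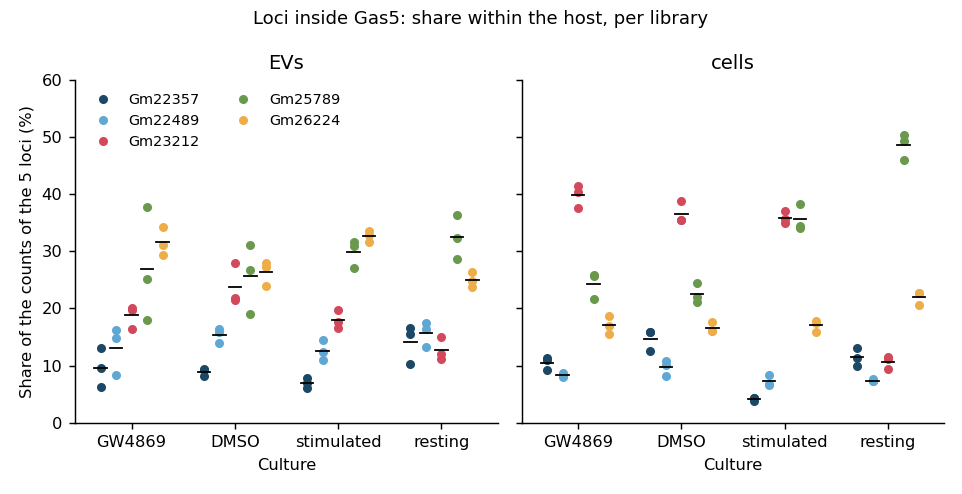
Share (%) of each of the 5 Gas5 loci in their summed counts, in EVs (left panel) and cells (right panel) of the 4 cultures. Points are libraries and bars are means of 3. In cells, Gm23212 lies between 35% and 41.5% outside resting cultures and between 9.42% and 11.5% in resting cells, where Gm25789 (45.9% to 50.4%) is largest.

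In EVs the same comparison gave a mixed picture. Of the 59 loci 6 were higher and 12 lower in stimulated than in resting EVs, against 28.9% and 25.2% of all features, with a median log2 fold of -0.21 (-1.62 to 1.84) for the loci and 0.093 for all features. The libraries did not overlap for 21 of the 59 loci, against 61.8% of all features, so the loci lay below the background. Mir126a had 78.3 to 86 CPM in stimulated and 148 to 163 in resting EVs, while Mir451a and Mir200c overlapped. The T cell miRNAs summed to 55370 to 62510 CPM in stimulated and 173700 to 243800 in resting EVs. The part of these markers in the folds was not tested. Gm26205 was again the highest, with 17.2, 12.8 and 19.6 CPM in stimulated EVs and 3.95, 6.25 and 3.67 in resting EVs, a log2 fold of 1.84 (SE 0.33, edgeR adjusted p = 3.75e-05). The other 5 that were higher were Gm24616 (1.16), Gm26448 (0.99), Gm22680 (0.84), Gm23212 (0.82) and Gm26224 (0.71). Gm22680 had 20.2, 16.5 and 21.8 CPM in stimulated EVs and 6.32, 18.1 and 8.38 in resting EVs, which overlapped. Its call was lost with RLE or upper quartile factors, with DESeq2, with only the groups compared, with host genes left out, and without any 1 of 8 libraries (replicate 1 or 3 of the stimulated or resting EVs, replicate 3 of the stimulated cells, or any GW4869 EV library). Without replicate 3 of the stimulated EVs Gm26205 and Gm23212 were the 2 called higher. Gm25835 was the lowest, with 64, 64.1 and 77 CPM in stimulated EVs and 267, 183 and 182 in resting EVs, a log2 fold of -1.62 (SE 0.23, edgeR adjusted p = 1.51e-06). Gm23262 in Eif4g2, a translation initiation factor gene, had 4.75, 3.48 and 3.27 CPM in stimulated EVs and 10.3, 9.03 and 9.95 in resting EVs, a log2 fold of -1.32 (SE 0.28, edgeR adjusted p = 0.000287). Gm23547 in Phb2, a mitochondrial prohibitin gene, had 4.25, 3.48 and 3.99 CPM in stimulated EVs and 7.9, 9.72 and 8.38 in resting EVs, a log2 fold of -1.14 (SE 0.35, edgeR adjusted p = 0.00862). The 3 lower loci were picked among called loci whose stimulated and resting EVs did not overlap. The 2 loci inside Eif4a2 went opposite ways, Gm24616 higher and Gm26447 lower (-1.08). The counts of Gm24616 were 22, 31 and 39 in stimulated and 5, 8 and 6 in resting EVs, its CPM overlapped, and its call was lost with RLE factors, with DESeq2 and without replicate 1 or 3 of the resting EVs or replicate 3 of the stimulated EVs. Scaled to library totals, 39 loci were higher and 1 lower while the median of all features was 1.21. Relative to the median of all features the loci lay 0.30 lower by TMM and 0.31 lower by library totals, a distance that a change of scaling leaves nearly fixed. Without replicate 1 of the resting EVs 7 loci were lower.

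The EV to cell ratio was compared between stimulated and resting cultures with a difference contrast. It was lower in stimulated cultures for 27 loci and higher for 1, against 20.7% and 15.2% of all features, with a median of -0.91 for the loci, -0.035 for all features and -0.93 for the named snoRNAs. The lowest were Gm26447 (-2.15, SE 0.52, edgeR adjusted p = 0.00225), Gm23262 (-2.08, SE 0.36, edgeR adjusted p = 7.45e-05) and Gm23547 (-1.95, SE 0.46, edgeR adjusted p = 0.00172). Gm26447 had 3, 4.64 and 5.45 CPM in stimulated EVs and 26.7, 22.9 and 28.5 in stimulated cells, but 9.48, 8.34 and 9.42 in resting EVs and 10.8, 16.4 and 9.68 in resting cells. Its EV and cell libraries lay apart in stimulated and close together in resting cultures. Gm23262 had 26, 25.9 and 32.6 CPM in stimulated cells and 18.2, 14.9 and 16.7 in resting cells, so that cells and EVs of this locus moved in opposite directions. Gm22680 alone had a higher ratio in stimulated cultures (1.15, SE 0.44, edgeR adjusted p = 0.0428). It had 20.2, 16.5 and 21.8 CPM in stimulated EVs and 81.2, 110.4 and 78.1 in stimulated cells, and its call was lost without 1 of 8 libraries (every stimulated or resting library but the second replicates), the ratio then being 0.91 to 1.13. By class, 6 of 10 ACA loci (-1.56), 3 of 4 U3-like ones (-1.84) and 13 of 31 with both boxes (-0.69) had lower ratios.

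**Figure D5:**
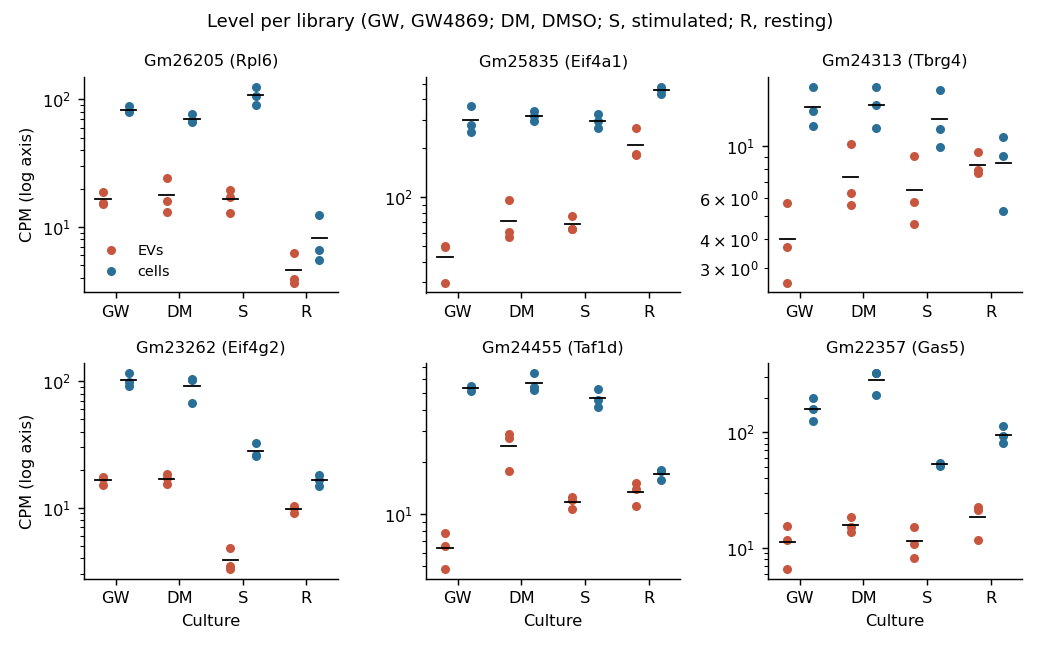
CPM (log axis) of 6 loci that stood apart, in EVs and cells of the 4 cultures, with points for libraries and bars for means of 3. Gm26205 is low in both resting groups, Gm25835 is highest in both, Gm24313 overlaps between resting EVs and cells, Gm23262 is lowest in stimulated EVs, Gm24455 is lowest in GW4869 EVs and Gm22357 is highest in DMSO cells.

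GW4869 was compared with its vehicle to see what the inhibitor changes. In EVs, 26 of the 59 loci were lower with GW4869 than with DMSO and 0 higher, against 9.69% and 7.89% of all features. The median log2 fold was -0.72 for the loci (-1.97 to 0.19), -0.067 for all features and -0.81 for the named snoRNAs, of which 52 of 89 were lower. Gm23451 in Top2a had 4.39, 3.71 and 2.86 CPM in GW4869 EVs and 14.9, 17.3 and 11.4 in DMSO EVs, a log2 fold of -1.97 (SE 0.34, edgeR adjusted p = 0.000544). Gm24455 in Taf1d had 4.83, 7.78 and 6.53 CPM in GW4869 EVs and 29, 27.4 and 17.7 in DMSO EVs, a log2 fold of -1.93 (SE 0.24, edgeR adjusted p = 5.65e-05). The U3-like Gm23927 had 12.3, 18.2 and 12.2 CPM in GW4869 EVs and 46.8, 79.2 and 36.6 in DMSO EVs, a log2 fold of -1.91 (SE 0.28, edgeR adjusted p = 0.000156). These 3 loci were picked among called loci whose GW4869 and DMSO EVs did not overlap. Over all 59, the libraries did not overlap for 32, against 27.7% of all features. Mir451a had 13.5 to 27.2 CPM in GW4869 and 31.1 to 53.6 in DMSO EVs, and the T cell miRNAs summed to 20910 to 32900 and 35440 to 69660 CPM, both without overlap. Mir126a and Mir200c overlapped, and the part of these in the folds was not tested. By class 3 of 4 U3-like loci, 15 of 31 with both boxes, 4 of 9 with box D only, 3 of 10 ACA loci and 1 of 5 others were lower, as were 5 of 5 named Rnu3 genes. Snhg1 held 6 of the lower loci, all but 1 of its 7. The calls were not made when the GW4869 and DMSO EVs were fitted alone: 0 of the 59 and 0 of 4367 features were called, with 26 of the 59 at an unadjusted p under 0.05 and a lowest edgeR adjusted p of 0.122. The count was 13 with library totals, and 10, 11, 13, 14 and 15 without GW4869 EVs replicate 3, GW4869 EVs replicate 1, DMSO EVs replicate 2, GW4869 EVs replicate 2 and stimulated cells replicate 3. GW4869 EVs also had low library totals, 1290918 to 1663560 counts, against 2068951 to 2579407 in DMSO EVs, and the part of depth was not tested.

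In cells none of the 59 loci was called between GW4869 and DMSO (0 higher and 0 lower in edgeR, against 2.88% and 0.113% of all features), with 8 at an unadjusted p under 0.05 and a median of -0.17. DESeq2 called 3 lower, Gm22357, Gm22620 and Gm24134, and library totals gave 1 higher, Gm26448. Gm22357 had 199, 124 and 159 CPM in GW4869 cells and 325, 325 and 209 in DMSO cells. Gm24134 had 117, 66.4 and 83.3 CPM in GW4869 cells and 159.8, 193 and 126 in DMSO cells. Neither locus overlapped between the GW4869 and DMSO cells. This held for 12 of the 59 loci, against 20.1% of all features, so it was about as common as in the background. Without DMSO cells replicate 3 Gm22620 was called lower, and without DMSO EVs replicate 2 Gm24134 was. Mir200c had 36.6 to 44.3 CPM in GW4869 cells and 48.4 to 57.9 in DMSO cells, without overlap. Mir451a, Mir126a and the summed T cell miRNAs overlapped, and the part of these in the folds was not tested. The EV to cell ratio was lower with GW4869 than with DMSO for 10 loci and higher for 0, against 5.83% and 1.75% of all features, with a median of -0.51 for the loci and -0.11 for all features. Gm23451 (-1.95, SE 0.43, edgeR adjusted p = 0.00604), Gm24455 (-1.85, SE 0.32, edgeR adjusted p = 0.00103) and Gm26448 (-1.78, SE 0.35, edgeR adjusted p = 0.0025) were the lowest. Gm26448 had 12.3, 13.3 and 8.98 CPM in GW4869 EVs and 22.6, 38.5 and 19.2 in DMSO EVs, with 85.4, 75.2 and 82.9 in GW4869 cells and 52.7, 51.1 and 57.7 in DMSO cells. Its EV libraries were lower and its cell libraries higher with GW4869, without overlap in either. Fitted on these 4 groups alone the count was 2, without GW4869 EVs replicate 3 it was 4, and without GW4869 EVs replicate 1, without stimulated cells replicate 3 or with library totals it was 6.

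DMSO cultures differed from stimulated cultures although both had been stimulated for 3 days, and this pair was added after the data had been seen. The labels do not say whether the 2 kinds of culture were handled together, so vehicle and handling cannot be told apart. In cells 20 loci were higher with DMSO and 1 lower, against 11.9% and 17.2% of all features, with a median log2 fold of 0.49 for the loci and -0.013 for all features. In EVs 15 were higher and 0 lower, against 13.6% and 9.91%, with medians of 0.44 and 0.032. Gm22357 had 325, 325 and 209 CPM in DMSO cells and 52.7, 51.7 and 54.4 in stimulated cells, a log2 fold of 2.44 (SE 0.27, edgeR adjusted p = 4.78e-07). Gm24134 had 159.8, 193 and 126 CPM in DMSO cells and 40.6, 47.2 and 35.9 in stimulated cells, a log2 fold of 1.96 (SE 0.28, edgeR adjusted p = 7.50e-06). Gm23201 had 826, 791 and 604 CPM in DMSO cells and 221, 239.7 and 202 in stimulated cells, a log2 fold of 1.74 (SE 0.25, edgeR adjusted p = 1.01e-05). These 3 were picked among called loci without overlap, so every DMSO cell library exceeded every stimulated one by that choice. In cells 36 of the 59 loci did not overlap, against 47% of all features. In EVs 22 did not, against 29.9%. Gm26448 was the 1 lower locus, with 52.7, 51.1 and 57.7 CPM in DMSO cells and 90.8, 102 and 92.9 in stimulated cells, a log2 fold of -0.82 (SE 0.23, edgeR adjusted p = 0.00892). In EVs the highest was Gm23262 with 17, 18.6 and 15.4 CPM in DMSO EVs and 4.75, 3.48 and 3.27 in stimulated EVs, a log2 fold of 2.11 (SE 0.25, edgeR adjusted p = 1.10e-06). Gm25203 (1.71) and Gm24134 (1.39) followed. Class by class, 12 of 31 loci with both boxes and 5 of 9 with box D only were higher in DMSO cells, but 1 of 10 ACA loci, and in EVs 4 of 10 ACA loci and 3 of 31 with both boxes. With library totals the split in cells was 13 higher and 6 lower. Without DMSO cells replicate 2 the count of higher loci in cells was 13, and that of lower loci was 2 without resting cells replicate 3, DMSO EVs replicate 1, DMSO EVs replicate 3 or GW4869 cells replicate 3 and 4 without DMSO EVs replicate 2. Mir451a had 42 to 49.8 CPM in DMSO and 58.4 to 83.5 in stimulated cells and Mir200c 48.4 to 57.9 and 38.1 to 45.7, both without overlap, as was Mir126a, which was higher with DMSO. In EVs Mir200c had 18.1 to 32.8 CPM with DMSO and 39.7 to 51.5 in stimulated cultures while the other 2 overlapped, and the part of these in the folds was not tested. Fitted on the 2 groups alone, 6 were lower in cells and 9 higher in EVs.

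Likeness of the loci over the 24 libraries includes the differences between groups, which nearly all of them shared between EVs and cells. The Pearson correlation of log2 CPM had a median of 0.891 over the 1666 pairs of loci in different or no hosts (0.259 to 0.989) and 0.919 over the 45 pairs of the same host (0.669 to 0.981). All pairs share the same libraries. The most alike were Gm23212 in Gas5 and Gm24148 in Ncl, the nucleolin gene (0.989, but 0.529 within groups), Gm25789 in Gas5 and Gm25855 in Snhg1 (0.988, but 0.274 within groups), and the near-copies Gm23927 and Gm24949 (0.987, and 0.833 within groups). The least alike were Gm25835 in Eif4a1 and Gm26205 in Rpl6 (0.259, and 0.226 within groups). Between stimulated and resting EVs, Gm25835 had the lowest and Gm26205 the highest fold of the 59.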

How the data were processed

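Small RNA libraries of CD4+ T cells and their EVs were deposited by the authors as whole-number read counts per annotated feature (24 libraries, 8 groups of 3, grouped by the titles in the labels). Alignment used Bowtie and the builds named were GRCm38 and mm10, per the submitters' processing notes; the counting tool, strand setting and treatment of multiply aligned reads are not given in the sources used here. Repeated lines (33) were dropped, leaving 4408 features. The tests used edgeR 4.0.16 (R 4.3.3, limma 3.58.1): filterByExpr (minimum count 10, which removed 0), TMM factors, 1 quasi-likelihood model of 8 groups without intercept, Benjamini-Hochberg adjustment over all features, calls at adjusted p under 0.05. CPM values are TMM-scaled and log CPM used a prior count of 2. Total counts per library, 1290918 to 3231626, set the precision; reads carry no molecular identifiers. Alternatives were other scalings, DESeq2 1.42.0, other filters, fits on the groups compared, host genes left out, a replicate block and leaving out each library. The model was tested on simulated data. The loci described in full were the 6 of highest mean CPM, the 3 highest and 3 lowest called without overlap per comparison, those over 1.5 log2 from the median of EVs against cells, and those called against the median; a few others were named after their values were seen. Members and lists were chosen with earlier results of these data known. Sequences, hosts and coordinates came from GENCODE M21. All 59 loci matched. Sequences from 1 chromosome were not printed.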

Additional observations from a re-analysis of the deposited data

Results flagged for a closer look

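The EV to cell ratio of the Gm-named snoRNAs differed between cultures by the test of the difference itself (edgeR). Between stimulated and resting cultures 28 of 59 loci were called, 27 lower and 1 higher, against 20.7% and 15.2% of all features. Of these, Gm26447 had a log2 difference of -2.15, Gm23262 of -2.08 and Gm23547 of -1.95. Gm22680 went the other way, with 1.15, a call lost with RLE or upper quartile factors, DESeq2 and host genes left out. The cells of these cultures had 79070 to 105600 CPM in the 5 listed T cell marker miRNAs when stimulated and 240400 to 270100 CPM when resting, and the part of this in the ratios was not tested. Between GW4869 and DMSO cultures 10 loci were called, all lower, against 5.83% lower and 1.75% higher of all features. The count was 2 when only these groups were fitted and 4 without GW4869 EVs replicate 3. The lowest were Gm23451 at -1.95, Gm24455 at -1.85 and Gm26448 at -1.78.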

How the results depend on the processing

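All counts for EVs against cells, and those relative to the named snoRNAs, stayed within 1.5 times under every alternative run. Library totals gave 51 higher and 0 lower for stimulated against resting cells, 39 higher and 1 lower for stimulated against resting EVs, 1 higher for GW4869 against DMSO cells, 13 lower for GW4869 against DMSO EVs, 2 higher and 6 lower for the ratio changes with stimulation and GW4869, and 13 higher and 6 lower for DMSO against stimulated cells (the 2 comparisons of DMSO with stimulated cultures were added after seeing the data). The ratio with stimulation had 0 higher with RLE factors, upper quartile factors, DESeq2 and host genes left out. DESeq2 called 3 lower in GW4869 against DMSO cells. Fits of only the groups compared gave 0 lower for GW4869 against DMSO EVs, 2 lower for its ratio, 6 lower for DMSO against stimulated cells and 9 higher for DMSO against stimulated EVs. The cause of these differences was not tested.

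Leaving out 1 library gave 0 to 3 lower loci for stimulated against resting cells, 2 to 6 higher and 7 to 15 lower for the EVs, 0 to 1 lower for GW4869 against DMSO cells, 10 to 34 lower for the EVs, 0 to 1 higher for the ratio with stimulation, 4 to 12 lower for the ratio with GW4869, and 13 to 25 higher and 1 to 4 lower for DMSO against stimulated cells. Without the 10 most abundant features the shares were 0.201%, 0.298%, 0.256% and 0.194% in GW4869, DMSO, stimulated and resting EVs and 1.43%, 1.58%, 1.33% and 0.824% in the cells. The sign turned for Gm24313 in resting EVs against cells (0.12 with library totals, 0.029 and 0.21 without resting cells replicates 1 and 2, 0.014 and 0.039 without resting EVs replicates 1 and 2, in a range of -0.26 to 0.21) and for Gm25835 in stimulated against resting cells (0.19 with library totals). With a replicate block the counts were 49 and 59 lower in resting and other EVs against cells, 31 higher and 2 lower in stimulated against resting cells, 24 lower in GW4869 against DMSO EVs and 10 lower in its ratio, so the paired fit changed no count by over 1.5 times. In no comparison did every same-numbered pair of deviations correlate above 0.1 (lowest -0.373), although single pairs reached 0.334. With 3 libraries per group this cannot exclude that replicate numbers pair the libraries. Removing the filter changed nothing, since it removed 0 features. Loci with under 10 counts in EVs limit small differences.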

Other observations

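The lead among the loci differed between groups. Gm25835 in Eif4a1 had the highest mean level of the 59 in resting EVs (210.7 CPM), and Gm24452 in Snhg1 had it in resting cells (850.5 CPM). Gm25894 in Snhg1 led in GW4869 EVs (51.1 CPM) and in stimulated cells (692 CPM). The lowest mean levels were those of Gm22193 in GW4869 EVs (1.76 CPM), Gm24016 in resting EVs (3.52 CPM), Gm24313 in stimulated cells (13.1 CPM) and Gm26165 in resting cells (5.82 CPM). These are levels per locus, not per length.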
